A study of Mus musculus with 12 samples.

Results

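The unfolded protein response and the amino acid response are 2 linked stress programmes, and 44 genes that carry them were followed here across 4 kinds of mouse cell. The genes were taken from a fixed list of names, and all 44 had a probe set that maps to a single gene, out of 19938 genes with such a probe set on the array. They were kept in 2 arms of 22 genes. The Atf4 and amino acid arm holds Atf4, its partner factors and their targets in amino acid synthesis and transport, and the endoplasmic reticulum arm holds the chaperones, disulfide isomerases, degradation factors and sensors of the secretory pathway.

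When unfolded protein builds up in the endoplasmic reticulum, the sensors encoded by Ern1, Eif2ak3 and Atf6 are activated. Ern1 splices the message of Xbp1, Atf6 is cut to release a transcription factor, and both lead to more chaperone. Eif2ak3, like the kinases that sense missing amino acids or haem, phosphorylates the initiation factor eIF2 alpha, which slows most translation but favours that of Atf4. Atf4 then turns on genes that make and import amino acids, together with Ddit3 and Trib3. The 2 arms can therefore be used together or apart.

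RNA was measured on 12 arrays, 3 for each group. WT_EC stands for endothelial cells from the lung of wild-type C57Bl/6 mice, and null_EC for their counterparts from C57Bl/6 mice without CD47, a surface receptor for thrombospondin-1 and SIRP alpha. Both were grown in the endothelial medium EGM2. The null_EB group held embryoid bodies, cell aggregates that CD47 null lung endothelial cells passaged for 6 months gave 24 to 36 h after seeding in basal endothelial medium lacking serum. ESC denotes V6.5, an established mouse embryonic stem cell line of which the labels give no CD47 genotype, kept in DMEM with 15% serum and 1000 IU/ml of LIF, the cytokine that sustains self-renewal. Medium, serum and cell type thus changed together with the group, and the labels give a passage time only for the embryoid bodies. The study set out to find expression changes that go with loss of CD47. The labels do not tell whether the 3 replicates came from different mice or different dishes, and the p-values measure only the spread between these arrays, which may be technical.

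Within a group, any 2 arrays of null_EC, null_EB or ESC had a correlation over all genes of 0.996 or more, while those of WT_EC had 0.949 to 0.958 (genes are not independent replicates). Cd47, the targeted gene, was at 12.59, 11.29 and 12.48 on the log2 scale in WT_EC and at 10.97 to 11.11 in null_EC. The files do not say which exons its probe set covers, so this signal does not test the deletion. All 8 embryonic stem cell markers (Pou5f1, Sox2, Nanog and others) had a group mean above 8.01, the median signal of all genes and arrays, in ESC and 0 of 8 in any other group. The endothelial label had less support in the values. Of 10 endothelial markers, 4 passed that level in WT_EC (Cdh5, Kdr, Flt1 and Esam), 2 in null_EC (Kdr and Flt1) and 1 in null_EB (Flt1), while Pecam1, Tek, Tie1, Erg, Cldn5 and Emcn lay below it in all of these groups. In ESC 3 of the 10 passed it (Pecam1, Tek and Flt1), more than in either null group. WT_EC 2 stood apart, since Cdh5 (6.85, against 9.10 and 9.52 on WT_EC 1 and 3) and Esam (6.97, against 10.34 and 9.53) were dim on it, and its Cd47 signal was nearest to null_EC. In these bulk samples fewer cells of a type and less RNA per cell cannot be told apart.

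The promoters of the 2 arms carried different short elements. The arms list genes by pathway, so this difference may follow from how the lists were made. Whether a match goes with a change in expression was not tested. RefSeq promoters (GRCm38.p6, 250 bases before to 50 after the start) were matched by symbol for 38 of the 44 genes, 19 in each arm. The endoplasmic reticulum stress element ERSE, bound by NF-Y and Atf6, was searched on both strands as CCAAT, any 9 bases, then CCACG. It was present in 8 of 19 promoters of the endoplasmic reticulum arm (Hspa5, Hsp90b1, Calr, Canx, Creld2, Dnajc3, Pdia6 and Syvn1), in 0 of 19 of the Atf4 arm and in 0.137% of the genes with a promoter in the table. The shorter ERSE-II, searched as ATTGG, any base, then CCACG, was in 2 of 19 (Dnajb11 and Herpud1), in 0 of 19 and in 0.0444% of all genes. The C/EBP-ATF response element, searched as TGATGNAAN, was in 6 of 19 promoters of the Atf4 arm (Trib3, Nupr1, Asns, Slc7a11, Chac1 and Vldlr), in 1 of 19 of the other arm (Herpud1) and in 4.5% of all genes. The Xbp1 element TGACGTGG was in 0 of 19 in each arm and in 0.714% of all genes. No 2 matches overlapped in these promoters. A match is a description of letters, and no match says only that these letters are not in this window.

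The 150 bases before the start are given for 7 genes whose values are described below, 3 with an ERSE, 3 with a C/EBP-ATF element, and Herpud1 with both an ERSE-II and a C/EBP-ATF element. Each is written 5′ to 3′ along the gene, and capitals mark the matches. Those of Creld2 and Nupr1, the C/EBP-ATF match of Herpud1 and the second match of Slc7a11 lie on the strand opposite to the gene.
Hspa5, chr2:34771940-34772089, + strand: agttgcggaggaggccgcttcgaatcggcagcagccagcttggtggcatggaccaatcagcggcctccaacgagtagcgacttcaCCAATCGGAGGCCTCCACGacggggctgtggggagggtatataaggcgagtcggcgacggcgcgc
Creld2, chr15:88819496-88819645, + strand: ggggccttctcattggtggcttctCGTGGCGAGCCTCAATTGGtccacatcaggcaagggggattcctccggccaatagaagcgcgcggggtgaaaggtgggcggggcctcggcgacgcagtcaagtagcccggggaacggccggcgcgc
Dnajc3, chr14:118937782-118937931, + strand: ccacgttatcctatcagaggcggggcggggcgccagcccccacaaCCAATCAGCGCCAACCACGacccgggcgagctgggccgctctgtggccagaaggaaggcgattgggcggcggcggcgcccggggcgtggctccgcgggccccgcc
Herpud1, chr8:94386279-94386428, + strand: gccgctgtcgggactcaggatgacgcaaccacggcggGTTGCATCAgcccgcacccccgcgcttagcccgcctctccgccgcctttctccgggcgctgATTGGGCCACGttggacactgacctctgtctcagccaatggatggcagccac
Nupr1, chr7:126625471-126625620, - strand: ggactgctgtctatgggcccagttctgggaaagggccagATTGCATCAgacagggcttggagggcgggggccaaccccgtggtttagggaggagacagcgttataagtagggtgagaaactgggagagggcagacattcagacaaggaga
Slc7a11, chr3:50443614-50443763, - strand: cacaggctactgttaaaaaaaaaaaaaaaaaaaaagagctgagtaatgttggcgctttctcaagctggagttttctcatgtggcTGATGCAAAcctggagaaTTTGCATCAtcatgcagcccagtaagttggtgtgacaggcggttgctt
Asns, chr6:7693210-7693359, - strand: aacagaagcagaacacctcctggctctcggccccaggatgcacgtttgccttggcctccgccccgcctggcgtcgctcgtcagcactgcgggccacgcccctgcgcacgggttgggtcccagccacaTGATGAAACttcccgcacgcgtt
The ERSE of Hspa5 runs from -65 to -47 relative to the start and that of Dnajc3 from -105 to -87. Slc7a11 has a pair of C/EBP-ATF matches in opposite orientation, at -66 to -58 and at -48 to -40, and Asns has 1 at -23 to -15.

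Across the 4 groups the arms followed different courses. The endoplasmic reticulum arm had its highest group mean in null_EC for 20 of 22 genes, the exceptions being Ern1 and Syvn1 (null_EB), and its lowest in ESC for 18 of 22. The Atf4 arm had no such common order: its highest mean fell in null_EB for 10 genes, in null_EC for 5, in ESC for 5 and in WT_EC for 2. Highest and lowest groups were not counted over all genes. The median signal of the endoplasmic reticulum arm was 11.17, 10.94 and 11.26 on the WT_EC arrays, 11.93, 11.93 and 12.07 in null_EC, 11.71, 11.64 and 11.56 in null_EB, and 10.63, 10.60 and 10.54 in ESC, so that no 2 groups overlapped. The median of the Atf4 arm was 10.74, 10.08 and 9.54 in WT_EC, a span that covers every array of the other groups, with 10.13 to 10.46 in null_EC, 10.55 to 10.65 in null_EB and 9.85 to 10.17 in ESC.

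**Figure D1:**
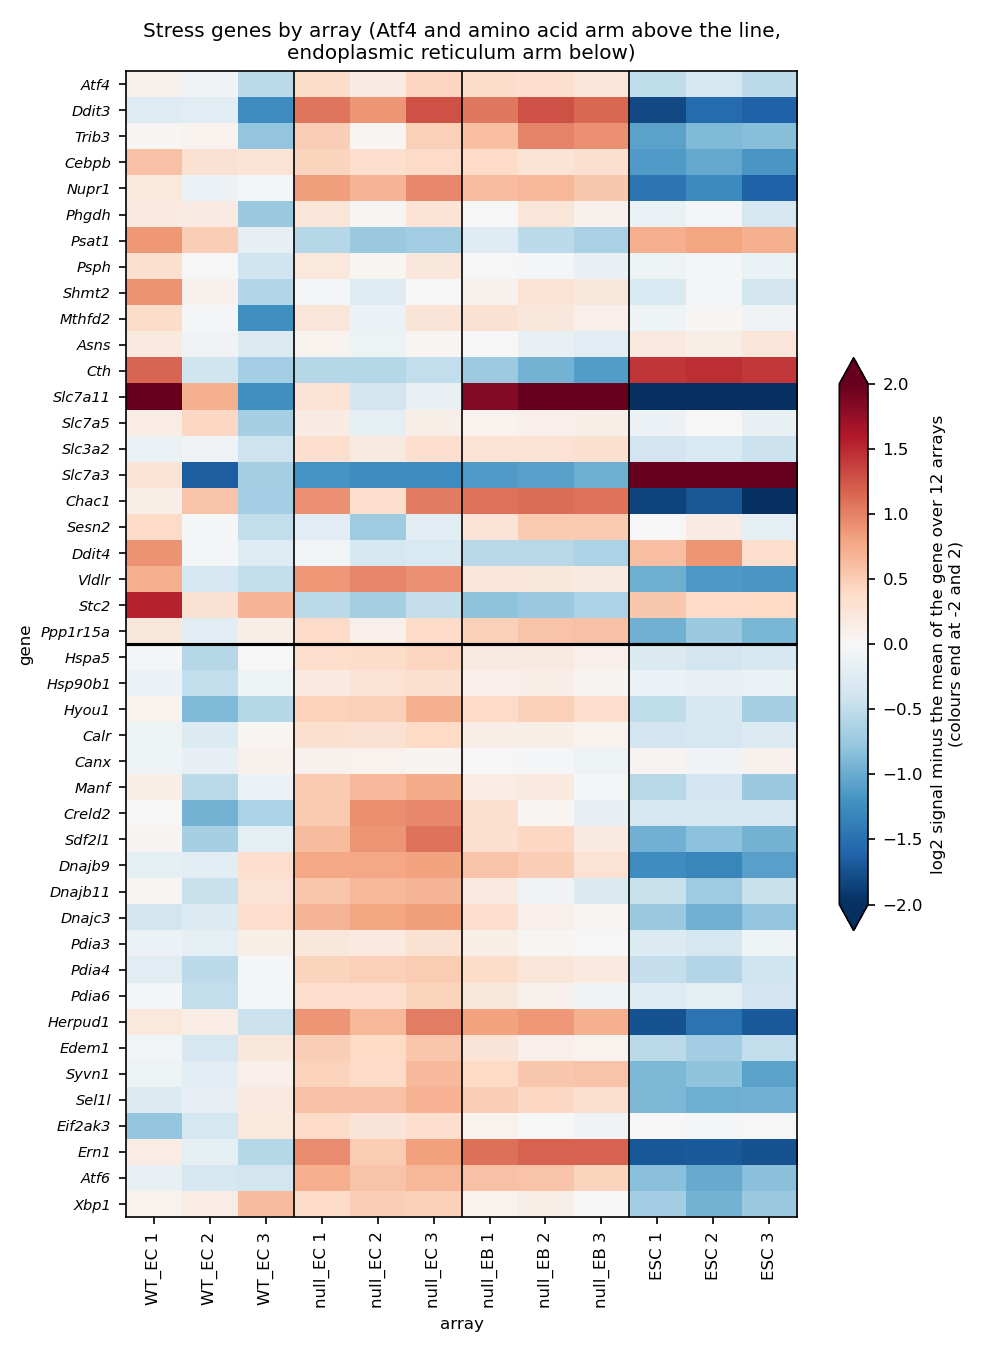
Log2 signal of the 44 genes (rows) on the 12 arrays (columns), as the difference from the mean of the gene over all arrays (colour, log2 units, ending at -2 and 2), with the Atf4 and amino acid arm above the black line and the endoplasmic reticulum arm below. Below the line null_EC is mostly red and ESC mostly blue, whereas above it Psat1, Cth and Slc7a3 are red in ESC while Ddit3, Chac1 and Nupr1 are blue.

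**Figure D2:**
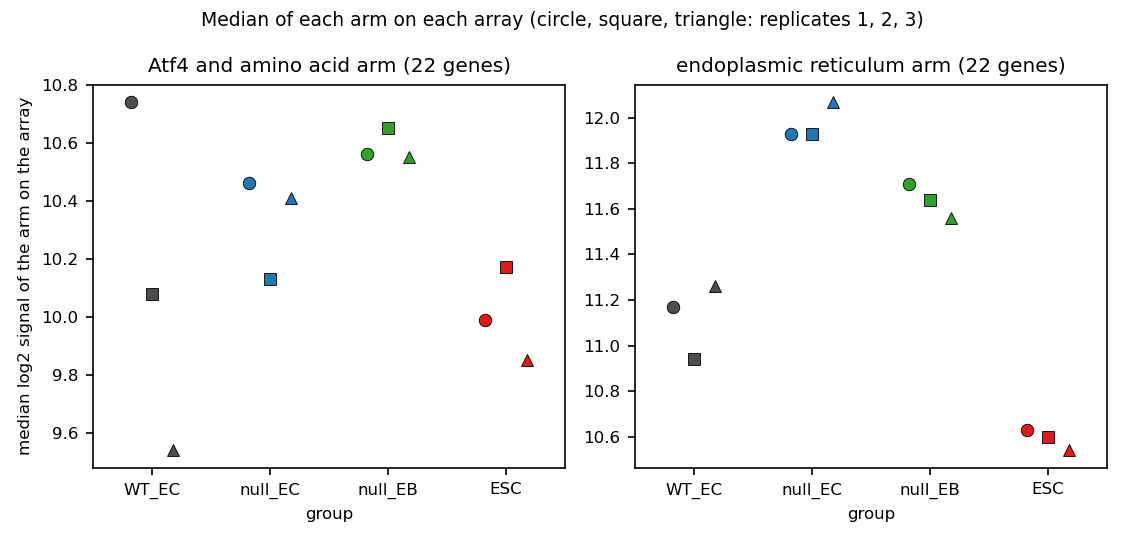
Median log2 signal of the 22 genes of each arm on each array (y axis) by group (x axis), with circle, square and triangle for replicates 1, 2 and 3. In the endoplasmic reticulum arm the groups do not overlap, and in the Atf4 arm the WT_EC arrays range from 9.54 to 10.74.

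In null_EC, the endoplasmic reticulum arm was higher than in WT_EC as a body, and the Atf4 arm was not. Genes were called by a limma model of all 12 arrays where the Benjamini-Hochberg adjusted p, taken over all genes, was under 0.05. In this comparison 13.1% of all genes were called, 8.12% higher and 5% lower. Of the 22 genes of the endoplasmic reticulum arm 19 rose, 0 fell (also 0 at an unadjusted p under 0.05) and 3 were not called. Their median log2 difference was 0.69, beside 0.03 over all genes. In the Atf4 arm 5 of 22 rose, 2 fell and 15 were not called, with a median of 0.13.

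Among the chaperones and cochaperones 10 of 11 rose. Creld2, a secreted disulfide isomerase-like protein induced by endoplasmic reticulum stress, was at 11.24, 10.30 and 10.61 in WT_EC and at 11.77, 12.18 and 12.21 in null_EC. The groups did not overlap, and the difference of 1.34 (SE 0.215, adjusted p = 0.00224) is a 2.53-fold rise. Sdf2l1, a partner of chaperone complexes, rose 2.20-fold (11.16 ± 0.231 against 10.02 ± 0.364, SD, n = 3, adjusted p = 0.00139), and Hyou1, a large chaperone of the Hsp70 class, rose 2.00-fold (11.76 ± 0.143 against 10.75 ± 0.486, adjusted p = 0.00697). Hspa5, which encodes BiP, the central Hsp70 chaperone of the compartment, was at 13.02, 12.49 and 13.06 in WT_EC and at 13.41, 13.43 and 13.49 in null_EC, without overlap (1.5-fold, log2 0.58, SE 0.126, adjusted p = 0.0116). The cochaperones Dnajc3 (1.82-fold), Dnajb9 (1.76-fold) and Dnajb11 (1.59-fold), the secreted factor Manf (1.75-fold), Hsp90b1 (1.42-fold) and the lectin chaperone Calr (1.37-fold) rose as well. Canx, the membrane-bound lectin chaperone, differed by 0.12 (SE 0.0789, adjusted p = 0.385) and varied by only 0.25 over all 12 arrays. The 2 probe sets listed for Dnajc3 hold the same values. A second probe set of Pdia4 showed the same direction, at 8.0 in WT_EC and 9.78 in null_EC.

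The isomerases Pdia4 (1.66-fold, adjusted p = 0.00201) and Pdia6 (1.47-fold, adjusted p = 0.015) rose, and Pdia3 was not called (log2 0.31, SE 0.098, adjusted p = 0.0676), although its groups did not overlap. All 4 degradation genes rose, by 1.45-fold to 1.84-fold: Herpud1, Sel1l, the ligase Syvn1 and Edem1, which delivers misfolded glycoproteins. Of the sensors, Atf6 had 11.03, 10.85 and 10.81 in WT_EC and 11.91, 11.75 and 11.85 in null_EC. Its spread was small in both groups, and the 1.92-fold rise (log2 0.94, SE 0.0852, adjusted p = 6.94e-05) had the lowest p-value of the 44 genes. Ern1 rose 1.94-fold (10.86 ± 0.220 against 9.90 ± 0.360, adjusted p = 0.00277) and Eif2ak3 1.55-fold (adjusted p = 0.0489). Xbp1 was at 11.88, 11.95 and 12.44 in WT_EC and at 12.19 to 12.30 in null_EC, so the groups overlapped (log2 0.17, SE 0.132, adjusted p = 0.486). An array probe set of this kind does not separate spliced from unspliced Xbp1 message.

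Of the 5 regulators of the Atf4 arm 3 rose. Ddit3, the transcription factor CHOP, was at 9.27, 9.33 and 8.27 in WT_EC and at 10.60, 10.42 and 10.81 in null_EC. The groups lay apart by more than their own spread, a 3.16-fold rise (log2 1.66, SE 0.235, adjusted p = 0.00106) that was the largest of the 44 genes. The stress cofactor Nupr1 rose 1.75-fold (11.40 ± 0.143 against 10.60 ± 0.175, adjusted p = 0.00123) and Atf4 itself 1.41-fold (11.09 ± 0.137 against 10.59 ± 0.322, log2 0.50, SE 0.141, adjusted p = 0.0416). Trib3, an inhibitor of kinase signalling, and Chac1, which degrades glutathione, were not called (log2 0.56 and 0.77, adjusted p = 0.122 and 0.0926). Cebpb, a partner of Atf4, had the same mean of 9.62 in both groups.

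Among the 7 enzymes of the Atf4 arm 0 were called higher (0 also at an unadjusted p below 0.05) and 1 lower. Over all genes 8.12% were called higher and 5% lower, so counts this small do not set the enzymes apart. A missing call does not show that a gene did not rise. Mthfd2 differed by 0.41, Shmt2 by -0.23 and Cth by -0.57, with SDs in WT_EC of 0.828, 0.744 and 0.991. Psat1, the transaminase of serine synthesis, was at 11.97, 11.59 and 10.94 in WT_EC and at 10.53, 10.35 and 10.40 in null_EC, a fall of 1.08 on the log2 scale (SE 0.207, adjusted p = 0.00622). Phgdh and Psph, the enzymes before and after it in the pathway, differed by 0.31 and 0.19 (adjusted p = 0.415 and 0.485), and Asns, asparagine synthetase and a classical Atf4 target, by 0.05 (SE 0.115, adjusted p = 0.843). The glycoprotein hormone gene Stc2 fell by 1.39 (8.40 ± 0.0962 against 9.79 ± 0.632, SE 0.236, adjusted p = 0.00302). Of the transporters Slc3a2, the heavy chain that pairs with several light chains, rose 1.41-fold (adjusted p = 0.00555), while its light chains Slc7a5 and Slc7a11 differed by 0.07 and -0.88 (adjusted p = 0.885 and 0.522). The lipoprotein receptor gene Vldlr rose 1.94-fold (11.70 ± 0.0535 against 10.74 ± 0.652, adjusted p = 0.0234).

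The WT_EC arrays bear on these calls. Their spread was the widest, with a median SD over the 44 genes of 0.361, against 0.0933 in null_EC, 0.0814 in null_EB and 0.0978 in ESC, and the model shares one error over all groups. With the 6 arrays of this comparison alone, where 2.95% of all genes were called, 1.45% higher and 1.5% lower, Atf6 (adjusted p = 0.0112) was the 1 gene of the endoplasmic reticulum arm still called, with Ddit3 (adjusted p = 0.0468) and Nupr1 (adjusted p = 0.0324) in the Atf4 arm. Every null_EC array nevertheless lay above every WT_EC array for 20 of the 22 endoplasmic reticulum genes, a separation seen in that direction in 16.7% of all genes, and for 5 of 22 in the Atf4 arm, where 2 of 22 were separated in the lower direction, beside 8.88% of all genes. Arrays shifted to equal housekeeping signal gave 11 endoplasmic reticulum genes called higher, beside 5.13% of all genes. The count of 5 higher in the Atf4 arm was 3 without WT_EC 3 or without any 1 of the null_EC arrays, and 7 without WT_EC 2. Without WT_EC 2, 18 endoplasmic reticulum genes were called higher. Atf4 itself was not called with the 6 arrays (adjusted p = 0.236), after the housekeeping shift (0.0635), without WT_EC 3 (0.0605) or without null_EC 1, 2 or 3 (0.136, 0.0554 and 0.153). The call of Vldlr was lost with the 6 arrays (0.192), without WT_EC 3 (0.0538) and without null_EC 1, 2 or 3 (0.0721, 0.0777 and 0.0747). The call of Hspa5 was lost with the 6 arrays (0.143), after the housekeeping shift (0.0578) and without null_EC 3 (0.0512).

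Cell type markers differed between these groups too. Among the endothelial markers Kdr was 3.67-fold higher and Flt1 2.68-fold lower in null_EC (adjusted p = 0.000108 and 0.000313). The median of 8 fibroblast and smooth muscle markers was 11.84 to 12.63 in WT_EC and 11.51 to 11.75 in null_EC, and Dpt and Lum were called lower in null_EC, where 6 of the 8 lay above the median signal of all genes. The median of 8 epithelium and mesothelium markers was 8.05 to 10.41 against 7.85 to 8.02, but these markers did not move together. The mesothelial genes Upk3b (mean 13.05 in null_EC against 11.95 in WT_EC, called higher) and Msln (12.14 against 11.67, not called) were bright in both groups and higher in null_EC. Epcam, Cdh1, Krt8, Krt18, Krt19 and Sftpc had lower means in null_EC, and none of these was called. The median of 8 immune markers was 8.97 on WT_EC 3, 7.71 and 6.80 on WT_EC 1 and WT_EC 2, and 6.90 to 7.01 in null_EC, and Cd14 was called lower. The part of these markers in the result was not tested. Over fits that each left out 1 array, 14 to 21 of 22 endoplasmic reticulum genes were called higher. Without WT_EC 3 the count was 21, and Xbp1 was among them (log2 0.34, adjusted p = 0.0247). Leaving out an array does not test the mix of cells.

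The order of the WT_EC arrays differed between the arms. WT_EC 1 was, for genes of the Atf4 arm, the highest of the 3 arrays for 17 of 22 and WT_EC 3 the lowest for 18 of 22. Slc7a11, the cystine importer that feeds glutathione synthesis, had the widest range, with 12.04, 9.81 and 7.87 on WT_EC 1, 2 and 3. Shmt2 (11.33, 10.51 and 9.84) and Mthfd2 (10.96, 10.57 and 9.37), of mitochondrial one-carbon metabolism, followed the same order of arrays. In the endoplasmic reticulum arm the order was different: WT_EC 2 was the lowest for 15 of 22 genes and WT_EC 3 the highest for 15 of 22. No such comparison has a test, since each array is a single sample. The same counts were not made over all genes, so these orders are not shown to be particular to the arms.

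**Figure D3:**
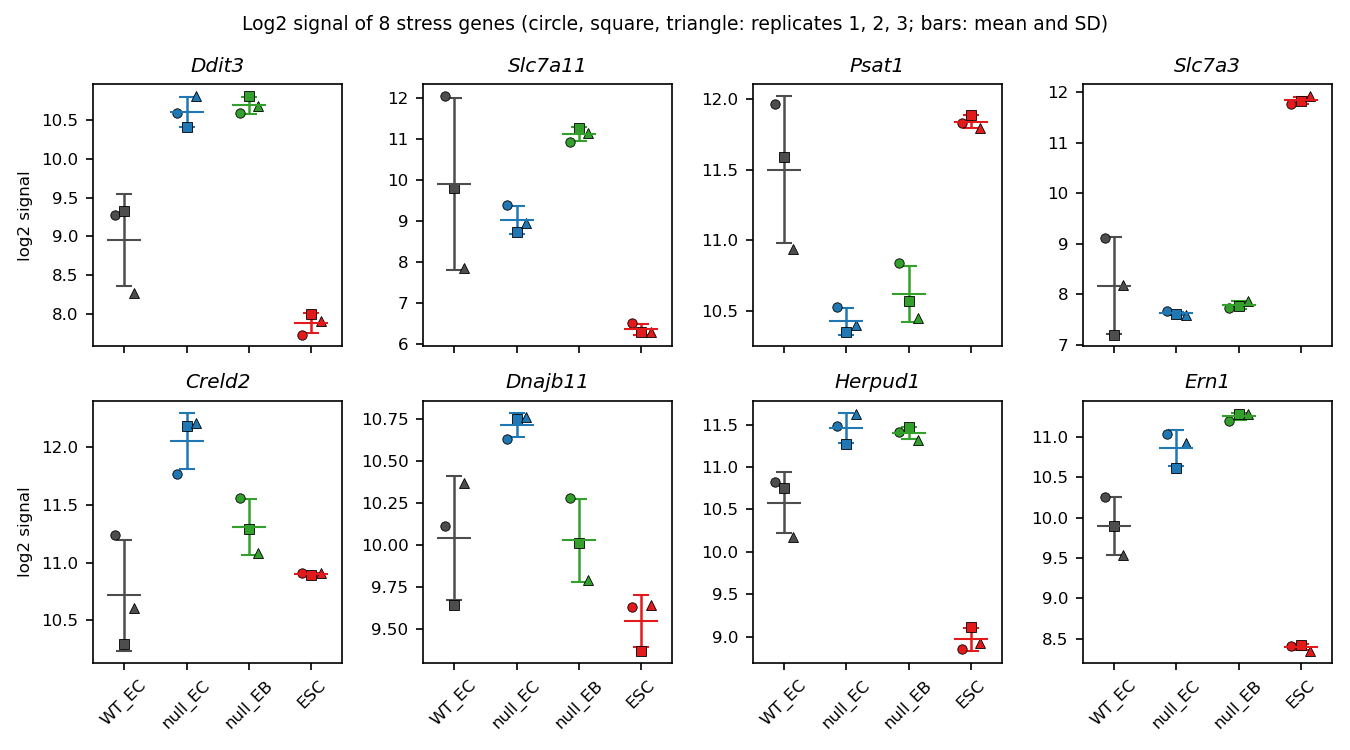
Log2 signal (y axis) of 8 genes by group (x axis), with circle, square and triangle for replicates 1, 2 and 3 and bars for the mean and SD. Ddit3, Creld2, Dnajb11, Herpud1 and Ern1 are higher on every null_EC array than on any WT_EC array, Slc7a11 spans 7.87 to 12.04 within WT_EC, and Slc7a3 stands at 11.77 to 11.92 in ESC alone.

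Among further genes of the same pathways, taken from lists of other amino acid response genes (33 measured) and other endoplasmic reticulum stress genes (37 measured), 6 and 10 rose in null_EC, beside 8.12% of all genes, and 1 and 1 fell, beside 5%. Derl3, a channel component of degradation, rose 3.69-fold (9.74 against 7.85, adjusted p = 0.000274) and the oxidase Ero1b 2.43-fold (adjusted p = 1.39e-05). In WT_EC both means (7.85 and 7.27) lay below the median signal of all genes, so these ratios rest on a dim denominator. Derl1 rose 1.59-fold (adjusted p = 0.000272), whereas the factor Creb3l1 fell by 0.67 (adjusted p = 0.00854). On the amino acid side the transaminase Got1 (1.76-fold, adjusted p = 0.00859), the glycine transporter Slc6a9 (1.56-fold, adjusted p = 0.0157) and the seryl-tRNA synthetase Sars (1.46-fold, adjusted p = 0.0108) rose. Atf3, a stress factor downstream of Atf4, moved against Ddit3 and fell by 0.75 (8.61 against 9.36, adjusted p = 0.00226). With the 6 arrays the calls of Got1 (adjusted p = 0.121), Slc6a9 (0.147), Sars (0.134), Atf3 (0.0716) and Creb3l1 (0.0717) were lost. That of Slc6a9 was also lost without null_EC 1 or 3 (0.0776 and 0.0679), that of Sars without null_EC 1 (0.0553), and that of Creb3l1 with array weights (0.0608).

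Between null_EB and null_EC, 1 gene of each arm was called in the model of all arrays, the cochaperone gene Dnajb11 (lower) and Sesn2 (higher). For the other genes the calls, and for small differences the sign, depended on which arrays were fitted and how they were scaled. Both contrasts use the null_EC arrays, so a rise before and a fall after are not independent. In the model of 12 arrays 5.4% of all genes were called, 2.9% higher and 2.5% lower, and the members were near that share. In the endoplasmic reticulum arm 1 gene fell, 0 rose and 21 were not called. In the Atf4 arm 1 rose, 0 fell and 21 were not called. At an unadjusted p below 0.05, 10 endoplasmic reticulum genes were lower and 1 higher, and 3 Atf4 arm genes were higher and 1 lower. Over all 19938 genes 1613 were lower and 1877 higher at that level. Without the WT_EC and ESC arrays the error was smaller: a fit of the 6 arrays called 27.4% of all genes, 15% higher and 12.4% lower. It called 15 of 22 endoplasmic reticulum genes lower and 1 higher, and 5 of 22 Atf4 arm genes higher and 4 lower.

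Dnajb11, a cochaperone of BiP, was at 10.63, 10.75 and 10.76 in null_EC and at 10.28, 10.01 and 9.79 in null_EB. It fell by 0.68 (SE 0.175, adjusted p = 0.0482), to a mean of 10.03, beside 10.04 in WT_EC. The call was lost after the housekeeping shift (adjusted p = 0.113) and on leaving out any of the 6 arrays except null_EB 1 (0.113 to 0.195). Creld2, at 11.77, 12.18 and 12.21, stood at 11.56, 11.29 and 11.08 in null_EB without overlap. Its difference of -0.74 was not called in the model of all arrays (SE 0.215, adjusted p = 0.0779) and was called with the 6 arrays (SE 0.136, adjusted p = 0.00237). The same held for Dnajc3 (log2 -0.60, adjusted p = 0.0659 with all arrays and 0.000435 with 6), Sdf2l1 (-0.57, 0.0855 and 0.00301) and Manf (-0.53, 0.0803 and 0.000648). Xbp1 was at 12.19 to 12.30 in null_EC and 11.82 to 11.92 in null_EB (log2 -0.38, SE 0.132, adjusted p = 0.139 and 0.000825), and Hspa5 at 13.41 to 13.49 and 13.16 to 13.25 (log2 -0.22, SE 0.126, adjusted p = 0.431 and 0.0133). All null_EB arrays lay below all null_EC arrays for 17 of the 22 genes, which 19.2% of all genes also did, and above them for Ern1 alone, beside 21.9%.

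Other genes of that arm differed little or the other way. Herpud1 was at 11.48, 11.27 and 11.63 in null_EC and at 11.41, 11.47 and 11.32 in null_EB (log2 -0.06, SE 0.160, adjusted p = 0.945), and Syvn1 differed by 0.01 (adjusted p = 0.991). Ern1 was at 11.04, 10.61 and 10.92 in null_EC and at 11.20, 11.28 and 11.28 in null_EB, a difference of 0.40 that the 6 arrays called (adjusted p = 0.0113) and the model of all arrays did not (adjusted p = 0.209). Against WT_EC, all null_EB arrays were higher for 11 of 22 endoplasmic reticulum genes, beside 18.4% of all genes, and lower for 0, beside 9.94%.

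In the Atf4 arm Slc7a11 had the largest difference, from 9.39, 8.73 and 8.95 in null_EC to 10.94, 11.27 and 11.14 in null_EB. The groups lay far apart, and the 4.26-fold difference (log2 2.09) was not called in the model of all arrays (SE 0.751, adjusted p = 0.157), in which the spread of WT_EC enters, but was with the 6 arrays (SE 0.147, adjusted p = 4.45e-06). Sesn2, a leucine sensor that restrains mTORC1, was at 9.65, 9.17 and 9.67 in null_EC and at 10.15, 10.40 and 10.40 in null_EB. Its 1.76-fold rise (log2 0.82, SE 0.208, adjusted p = 0.0475) was called in the model of all arrays, and this call was lost on leaving out any array of the pair of groups (adjusted p = 0.0805 to 0.195). Trib3 (log2 0.50), Shmt2 (0.30) and the phosphatase subunit gene Ppp1r15a (0.25), which reverses the block of translation, were called higher with the 6 arrays only. Vldlr (-0.71), Cth (-0.38), Ddit4 (-0.34) and Psph (-0.23) were called lower with the 6 arrays only. Atf4 itself and Ddit3 overlapped between the groups, with log2 differences of -0.00 (SE 0.141, adjusted p = 0.998) and 0.08 (SE 0.235, adjusted p = 0.954).

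The scaling of the arrays decides the sign of the small differences here. Shifting each array so that the median of 18 housekeeping genes is equal raised the null_EB minus null_EC median of all genes from -0.01 to 0.24. The median of the endoplasmic reticulum arm went from -0.23, with 20 of 22 genes negative, to 0.01, with 10 negative. Relative to the median of all genes the endoplasmic reticulum arm was at -0.23 and the Atf4 arm at 0.04. The shift moves all genes of an array by the same amount, so it cannot change these relative values or test them. After the shift 4 Atf4 arm genes were called higher, beside 18.5% of all genes, and 0 endoplasmic reticulum genes lower, beside 1.42%. With the 6 arrays of null_EB and null_EC after the shift, a setting added after seeing the data, 13 Atf4 arm genes were called higher and 5 endoplasmic reticulum genes lower, beside 48.7% and 4.4% of all genes. The share of all calls that were higher went from 53.7% to 92.9% in this comparison, from 61.9% to 50.4% in null_EC minus WT_EC, from 47.7% to 29.6% in ESC minus null_EC and from 48.6% to 15.4% in ESC minus null_EB.

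**Figure D4:**
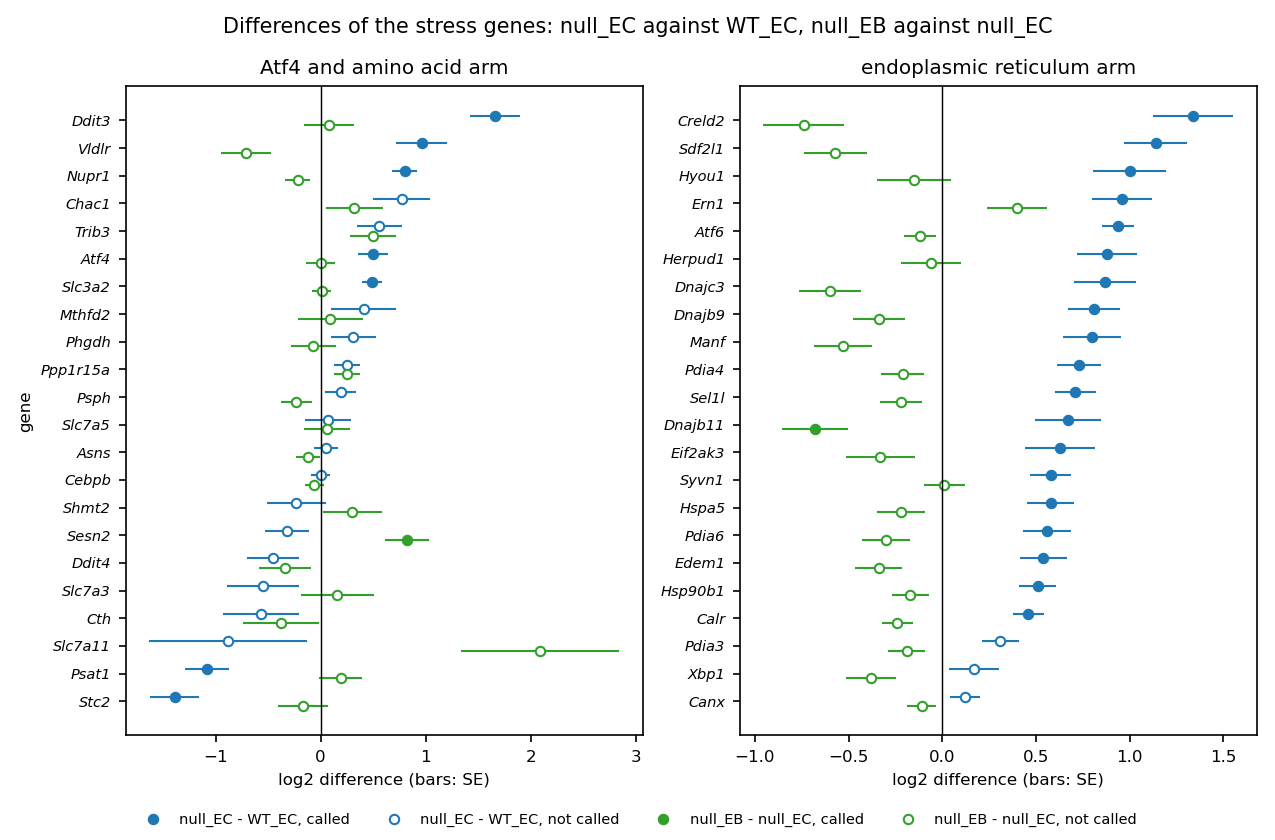
Log2 differences with SE (x axis) of the 44 genes (y axis) in null_EC minus WT_EC (blue) and null_EB minus null_EC (green), from the model of 12 arrays, with filled points for genes called at an adjusted p below 0.05. All 22 endoplasmic reticulum genes lie right of zero in blue and 20 of 22 left of it in green (10 of 22 after the housekeeping shift).

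Of the 33 other amino acid response genes 2 rose and 0 fell in null_EB (1 lower at an unadjusted p under 0.05), and of the 37 other endoplasmic reticulum stress genes 1 rose and 4 fell. Over all genes 2.9% were higher and 2.5% lower, so these counts of higher genes are near the background. Atf3 rose 1.62-fold (9.30 against 8.61, adjusted p = 0.00846), and the cysteinyl-tRNA synthetase Cars rose 1.57-fold (adjusted p = 0.0312). The folding gene Dnajc10 rose 1.28-fold (adjusted p = 0.0212). Sec24d, a coat protein of vesicles that leave the compartment, fell by 0.62 (adjusted p = 0.043), Txndc11 by 0.59 (adjusted p = 0.00531) and the factor Creb3 by 0.43 (adjusted p = 0.0114). The calls of Sec24d, Txndc11 and Creb3 were lost with the housekeeping shift, and those of Cars, Dnajc10 and Sec24d on leaving out any 1 of the 6 arrays. The call of Creb3 was also lost without null_EC 2 or 3 (adjusted p = 0.0512 and 0.0551) or null_EB 2 or 3 (0.0519 and 0.0612). Among the endothelial markers only Kdr was called in the same comparison, and it fell by 3.36. Flt1 was higher by 0.58 without overlap and was not called (adjusted p = 0.077 in the model of all arrays). The fibroblast marker Col1a1 fell by 0.86. The fibroblast and smooth muscle median was lower on every null_EB array (from 10.74) than on any null_EC array (11.51 to 11.75). Their part in the result was not tested.

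ESC had less message of most endoplasmic reticulum genes and of the stress regulators than either null group. Message of 5 of the 22 genes of the Atf4 arm was higher, which is near the share of all genes called higher. In ESC minus null_EC, 20 of 22 endoplasmic reticulum genes fell and 0 rose (also 0 at an unadjusted p under 0.05), and the median was -1.16. Here 47.9% of all genes were called, 22.9% higher and 25.1% lower, and their median was -0.09. In the Atf4 arm 10 of 22 fell and 5 rose. In ESC minus null_EB, which shares the ESC arrays, 44.8% of all genes were called, 21.8% higher and 23% lower, and 18 of 22 endoplasmic reticulum genes fell, 0 rose (0 at an unadjusted p below 0.05), 10 of 22 in the Atf4 arm fell and 5 rose. After the housekeeping shift 16 of 22 in the Atf4 arm were called lower than in null_EB, beside 65.5% of all genes. Markers of other cell types moved in both directions between ESC and null_EC. The mesothelial genes Msln and Upk3b were 19.63-fold and 39.20-fold lower in ESC than in null_EC, and the fibroblast gene Dcn 5.80-fold lower. The epithelial genes Epcam, Cdh1 and Krt18 were 44.35-fold, 24.27-fold and 16.30-fold higher, and Krt19 2.90-fold lower. Of the endothelial markers Pecam1, Tek and Flt1 were 4.80-fold, 3.62-fold and 1.64-fold higher, and Kdr 13.82-fold lower. Of 8 fibroblast and smooth muscle markers 6 lay above the median signal of all genes in ESC, with Acta2 at 12.58 and Tagln at 11.11. The part of these markers in the result was not tested.

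Herpud1, which anchors the degradation complex in the membrane, was at 8.86, 9.12 and 8.93 in ESC, below every other array. It was 5.62-fold lower than in null_EC (log2 -2.49, SE 0.160, adjusted p = 2.72e-07) and 5.38-fold lower than in null_EB (adjusted p = 3.94e-07). Ern1 was at 8.41, 8.42 and 8.35, which is 5.51-fold lower than in null_EC (adjusted p = 2.86e-07) and 7.27-fold lower than in null_EB (adjusted p = 1.06e-07). Dnajb9 (3.99-fold), Sdf2l1 (3.43-fold), Dnajc3 (3.02-fold) and Sel1l (2.97-fold) were next against null_EC, and Dnajb9 (3.15-fold), Syvn1 (2.70-fold), Atf6 (2.69-fold) and Sel1l (2.55-fold) against null_EB. The general chaperones differed less in size: Hspa5 was at 12.77, 12.69 and 12.75 in ESC, 1.64-fold lower than in null_EC (log2 -0.71, SE 0.126, adjusted p = 0.00071) and 1.40-fold lower than in null_EB (adjusted p = 0.00873), and Hsp90b1 1.32-fold lower than in null_EC (adjusted p = 0.00604). Xbp1 was 2.37-fold and 1.82-fold lower (adjusted p = 1.44e-05 and 0.000263). Canx was not called in either comparison (log2 -0.04 and 0.07, adjusted p = 0.668 and 0.513), nor was Eif2ak3 (log2 -0.34 and -0.01, adjusted p = 0.159 and 0.961). Next to WT_EC the median difference of the arm was smaller, at -0.44, beside -1.16 next to null_EC and -0.73 next to null_EB. All ESC arrays lay below all WT_EC arrays for 11 of 22 genes, beside 26% of all genes, and above them for 0, beside 25.5%. The wider spread of WT_EC enters these counts.

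All 5 regulators of the Atf4 arm fell. Ddit3 was at 7.73, 7.99 and 7.91 in ESC, below the median signal of all genes. It was 6.66-fold lower than in null_EC (log2 -2.74, SE 0.235, adjusted p = 2.73e-06) and 7.04-fold lower than in null_EB (adjusted p = 2.47e-06). Nupr1 was 4.82-fold lower than in null_EC (9.13 ± 0.176 against 11.40 ± 0.143, adjusted p = 4.73e-08), Cebpb 2.82-fold, Trib3 2.41-fold and Atf4 itself 1.72-fold (10.31 ± 0.0977 against 11.09 ± 0.137, log2 -0.78, SE 0.141, adjusted p = 0.000808). Against null_EB the falls were 4.14-fold for Nupr1, 3.41-fold for Trib3, 2.70-fold for Cebpb and 1.71-fold for Atf4 (adjusted p = 0.000879). Of the effectors, Chac1 was 6.23-fold lower than in null_EC and 7.80-fold lower than in null_EB, and Vldlr 4.06-fold and 2.48-fold lower. The ESC mean of Chac1, 7.87, lay below the median signal of all genes.

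The amino acid genes went both ways. Slc7a3, a transporter of arginine and lysine, was at 11.77, 11.83 and 11.92 in ESC and at 7.59 to 7.66 in null_EC and 7.72 to 7.87 in null_EB. Its signal was 18.67-fold higher than in null_EC (log2 4.22, SE 0.345, adjusted p = 1.8e-06) and 16.67-fold higher than in null_EB (adjusted p = 2.81e-06). In both null groups it lay below the median signal of all genes, so that the ratios rest on a dim denominator. On WT_EC arrays it was at 9.12, 7.20 and 8.18. Cth, which makes cysteine by transsulfuration, was at 10.97, 11.02 and 10.96 in ESC against 8.97, 8.98 and 9.05 in null_EC, a 3.96-fold rise (log2 1.98, SE 0.361, adjusted p = 0.000839) that was 5.16-fold against null_EB. Slc7a11, which imports cystine, ran the other way, at 6.52, 6.29 and 6.30 in ESC. It was 6.30-fold lower than in null_EC (SE 0.751, adjusted p = 0.0131) and 26.86-fold lower than in null_EB (log2 -4.75, adjusted p = 0.000335). Its ESC signal was near that of Pou5f1 and Sox2 in null_EC and null_EB (5.93 to 6.43), so it is not shown to be above background, and these are ratios of array signals, not of message.

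Psat1 was at 11.83, 11.89 and 11.80 in ESC, 2.66-fold higher than in null_EC (adjusted p = 0.000176) and 2.33-fold higher than in null_EB (adjusted p = 0.000544), and within the range of the WT_EC arrays (10.94 to 11.97). Stc2 and Ddit4, an inhibitor of mTORC1, rose 1.99-fold and 1.80-fold against null_EC and 2.24-fold and 2.27-fold against null_EB, and the call of Ddit4 against null_EC was lost without null_EC 2 or ESC 2 (adjusted p = 0.0542 and 0.066). The other serine and one-carbon enzymes, Phgdh, Psph, Shmt2 and Mthfd2, were called in none of the 4 comparisons, nor were Asns, Slc7a5 and Canx, which makes 7 of the 44 genes in the model of all arrays, though fits of 6 arrays called some of them, such as Shmt2 and Psph in null_EB minus null_EC. Asns was at 12.63 to 13.15 on all 12 arrays.

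**Figure D5:**
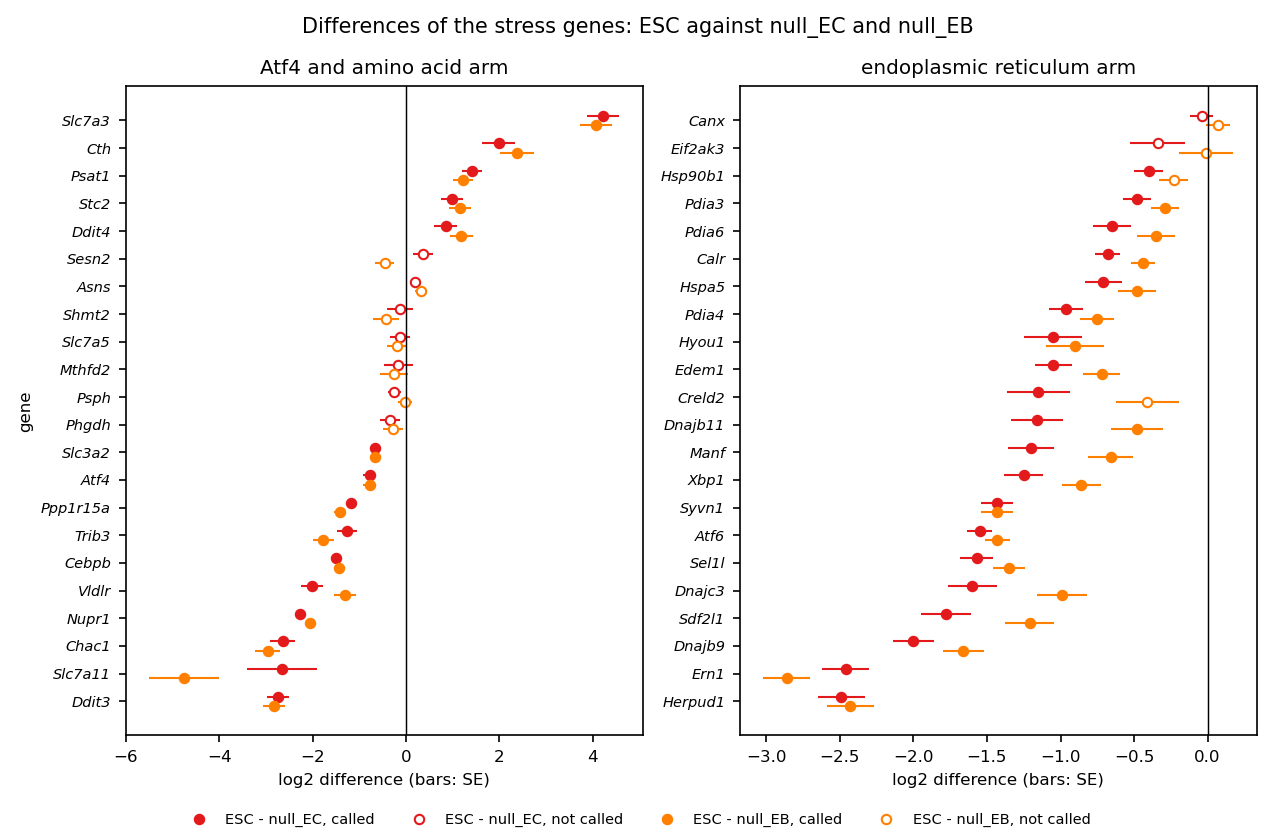
Log2 differences with SE (x axis) of the 44 genes (y axis) in ESC minus null_EC (red) and ESC minus null_EB (orange), from the model of 12 arrays, with filled points for genes called at an adjusted p below 0.05. Slc7a3, Cth, Psat1, Stc2 and Ddit4 lie to the right in both, and Herpud1 and Ern1 are furthest left in the endoplasmic reticulum arm.

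Of the 37 other endoplasmic reticulum stress genes 30 fell and 1 rose in ESC against null_EC, and 29 fell and 4 rose against null_EB. Over all genes 25.1% and 23% fell and 22.9% and 21.8% rose in these comparisons. The factors Creb3l2 (5.05-fold) and Creb3 (4.18-fold) and the channel gene Derl1 (3.41-fold, adjusted p = 1.28e-08) were lowest against null_EC, and Ssr2 was 1.25-fold higher, a call lost with the housekeeping shift. Of the 33 other amino acid response genes 12 fell and 4 rose against null_EC, and 16 fell and 4 rose against null_EB. The mitochondrial folate enzyme gene Aldh1l2 was at 7.57 to 7.97 in ESC and 11.02 to 11.23 in null_EC (10.07-fold lower, adjusted p = 1.28e-06). Its ESC signal lay below the median signal of all genes. Slc6a9 was 7.28-fold and the factor Jdp2 3.75-fold lower. Shmt1, the cytosolic serine hydroxymethyltransferase, rose 4.68-fold (10.28 against 8.06, adjusted p = 1.04e-07), Cbs, the enzyme before Cth in transsulfuration, 2.39-fold (adjusted p = 1.84e-07) and the leucyl-tRNA synthetase Lars 1.56-fold. Against null_EB, Shmt1 (3.86-fold), Cbs (2.36-fold), Tars, Derl3, Pdia5 and Sec23b were higher, the last 4 of these not with the housekeeping shift, and Aldh1l2 (8.03-fold), Slc6a9 (7.21-fold), Atf5, Creb3l2, Creb3 and Creb3l1 were lower.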

How the data were processed

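Total RNA of 12 samples was hybridised to whole-transcript arrays, 1 per sample. Per the submitters' processing notes, the deposited log2 values come from Affymetrix Expression Console 1.2.1 with RMA (background correction, quantile normalization, median polish), and settings beyond that are not given in the sources used here. The probe set identifiers are those of the mouse platform table, which was used for gene names, although the labels' protocol gives a human array. Of 35556 probe sets 21789 had 1 gene, 1621 several and 12146 none listed, and the last 2 kinds were left out. The brightest probe set over 12 arrays stood for each of the 999 genes with several. Arrays have no depth, and their number limits the precision. Levels of different probe sets were set against each other only to judge whether a signal was dim. The measures were the median signal of all genes and, for Slc7a11 in ESC, the signal of Pou5f1 and Sox2.

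limma 3.58.1 (R 4.3.3) fitted a mean per group to all 12 arrays for 4 comparisons, with Benjamini-Hochberg adjustment over 19938 genes and a threshold of 0.05. Tested on simulated data (19938 genes, 100 changed by 2-fold and 100 by 4-fold), it recovered 89 and 99 in null_EC minus WT_EC, 87 and 99 in null_EB minus null_EC, 89 and 97 in ESC minus null_EC, and 88 and 95 in ESC minus null_EB. The simulated noise of a gene had the same spread in every group. These rates therefore do not cover the wider spread of WT_EC in the data. The members and lists were chosen with earlier results of these data known. Any member could be named. Full statistics were due for Atf4, Ddit3, Xbp1, Hspa5 and, per arm, up to 6 called genes in each direction, and up to 3 per direction were named from each further list. Others are named to complete a group.

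Alternatives were the 6 arrays alone, array weights, the housekeeping shift, a filter on dim genes (log2 of 6 on 3 arrays), the mean of all probe sets, a replicate block, leaving out each array, and, added after seeing the data, the 6 arrays of null_EB and null_EC after the shift.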

Additional observations from a re-analysis of the deposited data

How the results depend on the processing

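For null_EC minus WT_EC, the genes called higher in the endoplasmic reticulum arm were 19 and became 1 with the 6 arrays alone and 11 with the housekeeping shift. In the Atf4 arm 5 higher became 2, and 2 lower became 0, with the 6 arrays alone. For null_EB minus null_EC, the 1 Atf4 arm gene called higher became 5 with the 6 arrays, 5 with array weights, 4 with the housekeeping shift, 0 with the replicate block and 13 with the 6 arrays after the shift, and the 0 called lower became 4, 7 with array weights and 1 with the 6 arrays after the shift. In the endoplasmic reticulum arm the 1 called lower became 15 with the 6 arrays, 16 with array weights, 5 with the 6 arrays after the shift, and 0 with the housekeeping shift or the replicate block, and the 0 called higher became 1 with the 6 arrays, array weights, the shift, or both together. With the 6 arrays after the shift, 48.7% of all genes were called higher and 4.4% lower, and Atf4 turned from -0.00 to 0.24 (adjusted p = 0.0487). For ESC minus null_EB, 10 lower in the Atf4 arm became 16 with the housekeeping shift. Counts of the other alternatives stayed within 1.5 times.

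Leaving out 1 array gave 14 to 21 endoplasmic reticulum genes higher in null_EC, 3 to 7 Atf4 arm genes higher and 2 to 3 lower. In null_EB it gave 0 Atf4 arm genes higher and 0 to 1 endoplasmic reticulum genes lower. Against null_EC, ESC had 4 to 5 higher and 10 lower in the Atf4 arm and 20 lower in the other. Against null_EB it had 5 to 6, 10, and 15 to 17.

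Replicate numbers are shared between groups, but same-numbered arrays did not deviate together (r from -0.256 to 0.225 over genes, above 0.1 in 3 of 18 pairs), so they share only a number. With the number as a block 18 endoplasmic reticulum genes were called higher in null_EC, and the calls of Atf4 in null_EC (adjusted p = 0.0564) and of Sesn2 (0.0812), Dnajb11 (0.0655), Cars (0.0503) and Sec24d (0.0528) in null_EB were lost.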
